A study of Mus musculus with 6 samples.

Results

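The natriuretic peptide system was followed as 8 genes of the 26012 in the deposited table, chosen by name: the peptide genes Nppa, Nppb and Nppc, the receptor genes Npr1, Npr2 and Npr3, and the converting enzyme genes Corin and Furin. All 8 were found, and all 8 passed the filter on low values. They were measured by RNA-seq of polyadenylated RNA from the ventricles of 6 hearts, each from a male C57BL/6 mouse aged 8 weeks whose left anterior descending (LAD) artery was tied off to cause a myocardial infarction (MI). After the ligation, 3 hearts received control mimic and 3 received a mix of miR-19a and miR-19b mimics, synthetic RNAs that act as the mature microRNA, at 10 μg per heart, and all 6 were collected at day 4 after MI. Both groups therefore carried an infarct and an injection, and no uninjured or uninjected heart was among the libraries. The study's methods place the injections around the infarct and call the libraries biological replicates. They name ventricular tissue as the source of the RNA. Whether, and in what proportions, it held infarcted, bordering and remote muscle is not given in the sources used here.

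Nppa encodes atrial natriuretic peptide (ANP) and Nppb encodes B-type natriuretic peptide (BNP), hormones that cardiomyocytes release when the wall is stretched and that lower blood volume and pressure. Nppc encodes C-type natriuretic peptide, which acts locally and is made mainly outside cardiomyocytes. ANP and BNP signal through the receptor guanylyl cyclase encoded by Npr1, C-type peptide through that encoded by Npr2, and both receptors make cyclic GMP, while the receptor encoded by Npr3 binds the peptides and takes them out of the circulation. The peptides are made as longer precursors, and corin (Corin) cuts the ANP precursor while furin (Furin), a protease of the secretory pathway, is known to cut the precursors of BNP and C-type peptide. In the adult ventricle Nppa and Nppb are low in health and are widely used as markers of stressed cardiomyocytes.

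The injected microRNAs share the seed, bases 2 to 8, that pairs with target mRNAs. Their mature sequences are shown with the seed in capitals because the seed sets which of the 8 genes could pair with them (RefSeq, GRCm38.p6), and from the 5′ end they differ by the substitution U11C, miR-19a first.
mmu-miR-19a-3p: uGUGCAAAucuaugcaaaacuga
mmu-miR-19b-3p: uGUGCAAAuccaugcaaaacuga

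A match to this seed (tttgcac, or ttgcac with an a after it, in the strand of the mRNA) was present in the longest annotated 3′ UTR of Npr3 and of Furin and in none of the other 6 genes. In the background, 18.4% of the 15820 tested genes with an annotated 3′ UTR held such a match. The sites are shown with 10 bases on each side, in capitals the bases that match the seed. The Npr3 site is at chr15:11843833-11843839 on the minus strand, at base 1338 of a 3′ UTR of 5281 bases, and the Furin site at chr7:80389480-80389486 on the minus strand, at base 1221 of 1513 (GRCm38).
Npr3 site: gggtatcctcTTTGCACtcaatcctgg
Furin site: tgatgtgcctTTTGCACccttcccatt

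The 3′ UTRs without a match were 293 bases long in Nppa, 227 in Nppb, 528 in Nppc, 529 in Npr1, 378 in Npr2 and 1461 in Corin. For both genes that hold a site the mean of the miR-19a/19b mimic hearts was above that of the controls, with no difference that passed the test. A match in these letters is a description and does not show that the mRNA is bound.

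Nppb and Nppa are neighbours on chromosome 4 and are read in the same direction, with 13516 bases between the end of Nppb and the start of Nppa. Their promoters, 250 bases before to 50 after the RefSeq start, are shown because the levels of this adjacent pair are compared below (GRCm38.p6, plus strand, chr4:148000472-148000771 for Nppa and chr4:147985650-147985949 for Nppb, whose RefSeq start lies inside the deposited gene). The capitals mark letters searched on both strands, namely the GATA factor motif gataa, the NKX2-5 motif caagtg, the TEAD factor motif ggaatg, the T-box factor motif tcacacc and the core promoter motif tataaa.
Nppa promoter: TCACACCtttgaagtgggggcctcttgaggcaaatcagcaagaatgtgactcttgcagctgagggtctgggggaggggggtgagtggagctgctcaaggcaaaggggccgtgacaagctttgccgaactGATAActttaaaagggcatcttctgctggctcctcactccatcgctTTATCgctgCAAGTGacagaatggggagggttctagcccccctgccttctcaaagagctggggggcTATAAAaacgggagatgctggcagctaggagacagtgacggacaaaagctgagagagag
Nppb promoter: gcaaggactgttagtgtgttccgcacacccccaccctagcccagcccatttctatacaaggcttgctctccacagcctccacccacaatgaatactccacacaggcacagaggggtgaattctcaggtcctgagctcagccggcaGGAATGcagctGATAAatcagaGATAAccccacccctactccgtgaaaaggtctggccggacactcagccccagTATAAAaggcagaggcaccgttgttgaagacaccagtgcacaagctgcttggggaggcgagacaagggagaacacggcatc

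The Nppa window held 2 GATA matches, 1 NKX2-5 match, 1 T-box match and 1 core promoter match, and the Nppb window 2 GATA matches, 1 TEAD match and 1 core promoter match, and none overlapped another. Of 27025 promoters of this length, 25.8% held gataa, 13.5% caagtg, 14.6% ggaatg, 3.96% tcacacc and 14.2% tataaa. These matches are not evidence of binding, which was not measured.

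Between 19398196 and 23645308 reads were counted on genes in each heart, and each value below is a normalized count, which is the reads on the gene over the size factor of that heart (0.905 to 1.16). Limma was fitted to log2(normalized count + 1) of 21126 genes whose mean reached 1, and 0 of them passed an adjusted p-value under 0.05 (0% called). By unadjusted p-value under 0.05, 555 were below and 293 above the controls. From the recovered reads DESeq2 called 28 genes lower and 1 higher, edgeR's exact test 28 lower and 2 higher, and edgeR's quasi-likelihood test 0, and none of these was among the 8. Library miR-19a/19b mimic replicate 3 stood apart from the other two of its group, with a chi-square per degree of freedom of 110 to 123 against them, compared with 9.49 to 24.4 for the other pairs within a group. Its 10 summed cardiomyocyte markers were at 52.3% of the control mean, against 156% and 141% in replicates 1 and 2. In miR-19a/19b mimic replicate 1 the 6 skeletal muscle markers summed to 2282, 33.0-fold the next highest library. Fewer cardiomyocytes and less RNA per cardiomyocyte cannot be told apart in whole tissue, so results are also given without replicate 3.

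Of the 8 genes, 0 passed the adjusted threshold, and 1, Nppa, was lower at an unadjusted p-value under 0.05, where 2.63% of all genes tested were lower and 1.39% higher by the same rule. The fold changes lay below 0 for 4 of the 8 and above 0 for 4, with a median log2 fold change of -0.01 beside 0.00 over all genes tested. Nppa was also the 1 gene of the 8 whose groups had no overlap, where 5.3% of all genes were lower and 3.9% higher without overlap. With miR-19a/19b mimic replicate 3 left out there were 3 genes with an unadjusted p-value under 0.05, Nppa lower and Corin and Npr3 higher, where 6.08% of all genes were lower and 8.39% higher.

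**Figure D1:**
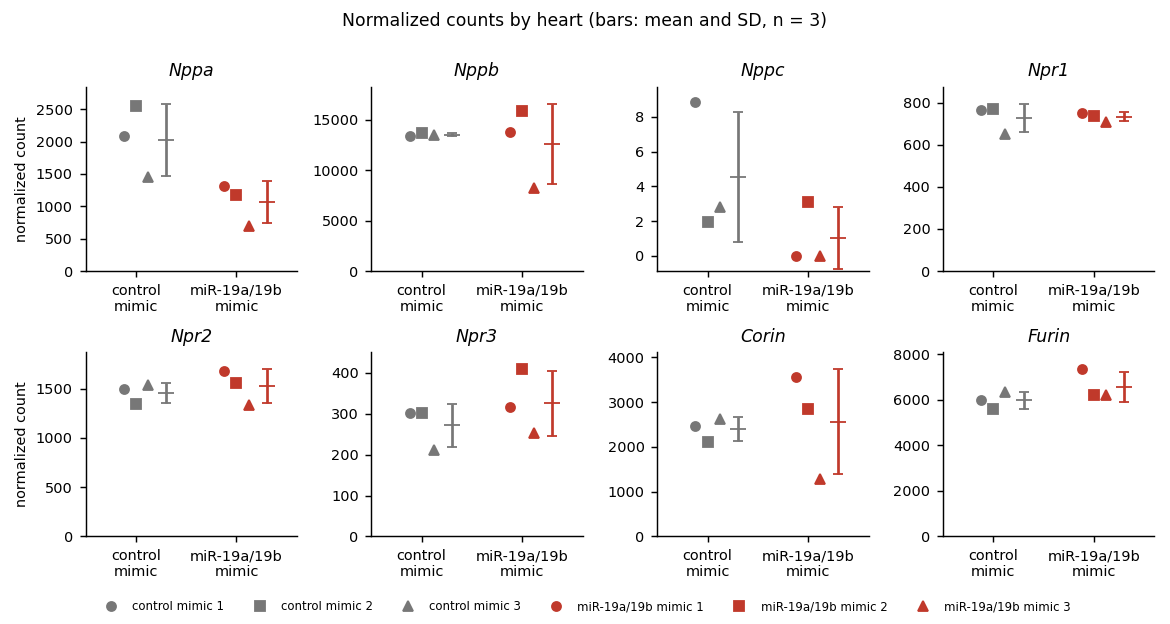
Normalized counts (linear axes) of the 8 genes in each of the 6 hearts, with the mean and SD of each group (n = 3) beside the points. All 3 miR-19a/19b mimic hearts lie below the control mimic hearts for Nppa (1317 at most against 1447 at least), and the groups overlap for the other 7 genes.

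Nppa (ENSMUSG00000041616), at chr4:148000722-148002079 on the plus strand, had normalized counts of 2082, 2555 and 1447 in control mimic replicates 1 to 3 and of 1317, 1178 and 702 in miR-19a/19b mimic replicates 1 to 3. Every miR-19a/19b mimic heart was below every control heart, and the gap between the groups was small beside the spread within the controls. The means were 2028 ± 556 and 1066 ± 323 (SD, n = 3), so that the miR-19a/19b mimic mean was 52.5% of the control mean. The log2 fold change was -0.94 (standard error 0.26, 95% confidence interval -1.53 to -0.35), with an unadjusted p of 0.00605 and an adjusted p of 0.954 in limma. By unadjusted p Nppa stood at rank 133 of the 21126 genes, and 456 genes, 2.16%, had a larger fall. An exact permutation test, two-sided, of 3 hearts against 3 gave p = 0.1, the smallest it can give.

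Nppa was lower at an unadjusted p-value under 0.05 in each of the 14 alternative settings, each heart left out in turn included, and passed the adjusted threshold in 0 of them. Without miR-19a/19b mimic replicate 3, the heart with the lowest Nppa, the log2 fold change was -0.66 (standard error 0.18) with an adjusted p of 0.0908 in limma. Nppa was at 64.9%, 58.1% and 34.6% of the control mean in miR-19a/19b mimic replicates 1, 2 and 3, whereas the cardiomyocyte markers were at 156%, 141% and 52.3% in the same hearts. Nppa was thus below the control mean both in the hearts with more and in the heart with less cardiomyocyte marker RNA, and the part of cardiomyocyte content in the difference was not tested.

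Nppa is also an atrial gene, and atrial tissue in a ventricular sample would add to it. Of the 5 atrial markers, Bmp10 did not exceed 1.08 normalized counts and Myl7, the atrial myosin light chain, lay between 3.23 and 15.6 in all 6 hearts. Sln was at 0 in 4 hearts, at 0.86 in miR-19a/19b mimic replicate 3 and at 96.8 in miR-19a/19b mimic replicate 1, and Myl4 was at 306 in that last heart against 50.4 to 86.9 in the others. Both are also known from skeletal muscle, whose markers were high in the same heart. Dkk3, which other cells express too, made up most of the summed level of the 5 markers, 1241 to 1488 in control and 850 to 1730 in miR-19a/19b mimic hearts. An antisense gene, Gm13054, covers 532 of the 865 exonic bases of Nppa (61.5%). The library kit is not stated to keep strand, nor is it stated how reads in the shared bases were counted. Such reads may have been given to Nppa or left out of it, so its level may be too high or too low, which was not tested. Gm13054 itself was listed at 14.4 to 27.3 normalized counts.

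Nppb (ENSMUSG00000029019), at chr4:147985788-147987205 on the plus strand, had normalized counts of 13359, 13660 and 13436 in control mimic hearts and of 13767, 15849 and 8197 in miR-19a/19b mimic hearts. The control hearts were nearly equal, with a coefficient of variation of 1.16%, while the miR-19a/19b mimic hearts spread on both sides of them, with one of 31.4%. The means were 13485 ± 156 and 12605 ± 3956 (SD, n = 3). The log2 fold change was -0.15 (standard error 0.23, 95% confidence interval -0.67 to 0.37), with an unadjusted p of 0.525 in limma. Its direction rested on miR-19a/19b mimic replicate 3, without which it was 0.13 (95% confidence interval -0.12 to 0.38). In that heart Nppb was at 60.8% of the control mean, beside 49.96% for the 8 summed cardiomyocyte stress genes and 52.3% for the cardiomyocyte markers.

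**Figure D2:**
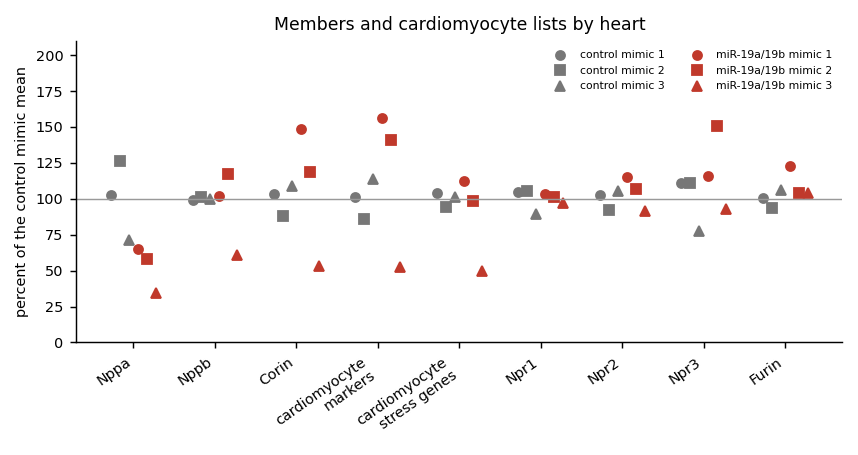
Levels in each heart as a percent of the control mimic mean (linear axis from 0, line at 100) for 7 of the genes and for the summed cardiomyocyte markers and cardiomyocyte stress genes. In miR-19a/19b mimic replicate 3 (red triangles) Nppb, Corin and both lists lie at 49.96% to 60.8%, while Npr1, Npr2, Npr3 and Furin lie at 91.6% to 104%.

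The share of ANP to BNP transcripts within a heart does not depend on the size factor. The ratio of Nppa to Nppb was 0.156, 0.187 and 0.108 in control hearts and 0.0957, 0.0744 and 0.0857 in miR-19a/19b mimic hearts. All 3 miR-19a/19b mimic hearts lay below all 3 control hearts, replicate 3 included, which lay between the other two. The log2 ratio differed by -0.79 (-2.77 ± 0.41 against -3.56 ± 0.18, SD, n = 3), with an exact permutation p of 0.1, the smallest possible, and an adjusted p of 0.533 over the 8 ratios compared. Relative to the summed cardiomyocyte markers, Nppa differed by -1.02 on the log2 scale (exact permutation p = 0.2, groups overlapping) and Nppb by -0.23 (exact permutation p = 0.4), with adjusted p-values of 0.533 and 0.640. With each heart left out, the difference of Nppb to the markers ranged from -0.447 without miR-19a/19b mimic replicate 3 to -0.031 without miR-19a/19b mimic replicate 1.

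**Figure D3:**
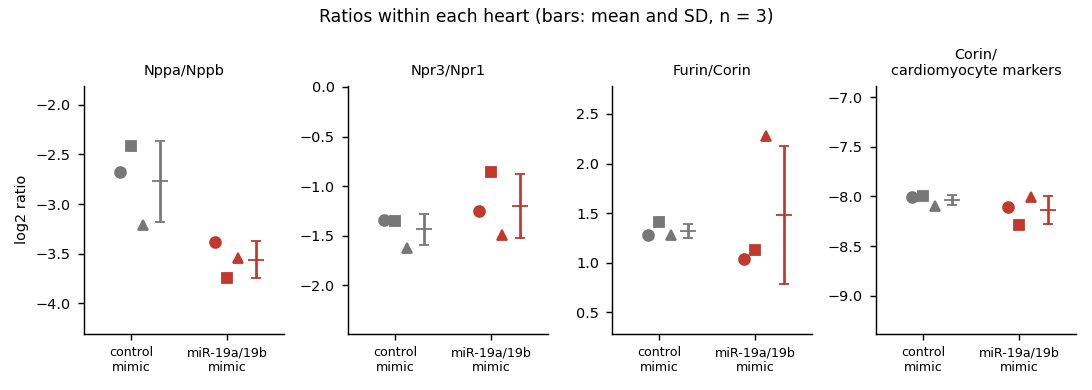
The log2 ratio of Nppa to Nppb, Npr3 to Npr1, Furin to Corin and Corin to the summed cardiomyocyte markers in each heart, with the mean and SD of each group (n = 3), on axes of equal span. The groups are apart only for Nppa to Nppb, where the difference is -0.79, and the ratio of Corin to the cardiomyocyte markers stays between -8.29 and -8.00 in all 6 hearts.

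Across the 6 hearts, 7 relations of the peptide genes were computed and 0 passed adjustment. Nppa and Nppb had a Pearson's r of 0.63 (exact permutation p = 0.311, adjusted 0.544) and a Spearman's rho of 0.03 (exact permutation p = 1, adjusted 1), and without the 2 hearts farthest from the median r was -0.18, so the relation rested on those hearts. Nppb and the cardiomyocyte markers had an r of 0.87 (exact permutation p = 0.0889, adjusted 0.544) and a rho of 0.77 (exact permutation p = 0.103, adjusted 0.719), with an r of 0.78 without the 2 farthest hearts. Nppb and the stress genes had an r of 0.93 (exact permutation p = 0.228, adjusted 0.544) but a rho of 0.31 (exact permutation p = 0.564, adjusted 1) and an r of -0.27 without those hearts. For Nppa, r was 0.31 with the cardiomyocyte markers, 0.19 with the atrial markers and 0.69 with the stress genes (exact permutation p of 0.586, 0.739 and 0.261, adjusted 0.821, 0.862 and 0.544). The matching rho values were -0.09, 0.43 and 0.26 (exact permutation p of 0.919, 0.419 and 0.658, each adjusted to 1), and without the 2 farthest hearts r was -0.98, 0.26 and -0.27. For Nppb with the atrial markers r was -0.07 and rho 0.09 (exact permutation p of 0.872 and 0.919, adjusted 0.872 and 1), with an r of 0.61 without the 2 farthest hearts.

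By the rule for likeness, the highest Pearson's r over the 6 hearts among 11608 genes with a mean of at least 100, the genes most like Nppa were Anxa7 (0.996), Ing5 (0.982), Hsd17b7 (0.972), Lars (0.971) and Lnp (0.966). Anxa7, a calcium-binding annexin, followed the order of the hearts in Nppa over a narrower range, from 3631 in control mimic replicate 2 to 3009 in miR-19a/19b mimic replicate 3. Those most like Nppb were Pex7 (0.997), Stradb (0.996), Sh2d4a (0.995), Sdhaf3 (0.995) and Epn3 (0.992). Stradb had 681, 706 and 691 normalized counts in control hearts and 700, 765 and 443 in miR-19a/19b mimic hearts, and so shared with Nppb even controls and 1 low heart. With 6 points and so many genes, values this high are a description, and the points share the libraries.

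Nppc (ENSMUSG00000026241), at chr1:86666291-86670571 on the minus strand, was close to the limit of detection. It had 8, 2 and 3 reads in control hearts and 0, 3 and 0 reads in miR-19a/19b mimic hearts, or 8.84, 1.95 and 2.80 against 0, 3.09 and 0 normalized counts. The groups overlapped, and 1 control heart held 8 of the 13 control reads. Over each group, and scaled for depth, the ratio of miR-19a/19b mimic to control was 0.227 (exact 95% interval 0.0414 to 0.824, which covers counting error only). In limma the unadjusted p was 0.0627 and the adjusted p 0.9996, so a difference was not detectable at this depth against the spread between hearts.

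The receptor genes showed no difference that passed the test, and Npr1 had the smallest standard error of the 8 genes. Npr1 (ENSMUSG00000027931), at chr3:90450591-90465866 on the minus strand, encodes the guanylyl cyclase receptor of ANP and BNP. It had 765, 770 and 652 normalized counts in control hearts and 751, 738 and 710 in miR-19a/19b mimic hearts, with all 3 of the latter inside the control range. The means were 729 ± 66.6 and 733 ± 21.1 (SD, n = 3), and the log2 fold change was 0.01 (standard error 0.10, unadjusted p = 0.914 in limma). Its 95% confidence interval, -0.23 to 0.25, runs from 0.855 to 1.19 times the control level.

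Npr2 (ENSMUSG00000028469), at chr4:43631935-43651244 on the plus strand, encodes the guanylyl cyclase receptor of C-type peptide. Its normalized counts were 1492, 1343 and 1538 in control hearts and 1678, 1555 and 1336 in miR-19a/19b mimic hearts. Replicate 3 of the miR-19a/19b mimic was the lowest of the 6 and the other two the highest. The means were 1458 ± 102 and 1523 ± 174 (SD, n = 3), a log2 fold change of 0.06 (standard error 0.12, 95% confidence interval -0.20 to 0.32, unadjusted p = 0.621 in limma). Exons of Gm12473, on the other strand, share 5.70% of the exonic bases of Npr2, and that gene was listed at 88.8 to 179 normalized counts. Exons of other antisense genes share 11.7% of the exonic bases of Npr1, 2.72% of Corin and 1.29% of Furin, and those genes were listed at 8.84 at most.

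Npr3 (ENSMUSG00000022206), at chr15:11839896-11905674 on the minus strand, encodes the clearance receptor and is 1 of the pair of genes with a miR-19 seed match, shown above. It had 302, 302 and 211 normalized counts in control hearts and 315, 408 and 252 in miR-19a/19b mimic hearts. Replicates 1 and 2 of the miR-19a/19b mimic were above every control heart, and replicate 3 was within the control range. The means were 271 ± 52.3 and 325 ± 78.8 (SD, n = 3), a log2 fold change of 0.25 (standard error 0.21, 95% confidence interval -0.22 to 0.72, unadjusted p = 0.256 in limma). Single hearts set its size. Without miR-19a/19b mimic replicate 3 it was 0.42 (standard error 0.18, unadjusted p = 0.0350, adjusted p = 0.292 in limma), while without miR-19a/19b mimic replicate 2 it was 0.072 (unadjusted p = 0.733 in limma) and without control mimic replicate 3 it was 0.079 (unadjusted p = 0.714 in limma).

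For the balance among the receptors, 0 of the 3 ratios differed with an adjusted p-value under 0.05. The ratio of the clearance receptor to Npr1 was 0.395, 0.392 and 0.325 in control hearts and 0.421, 0.554 and 0.355 in miR-19a/19b mimic hearts. They differed by 0.24 on the log2 scale (exact permutation p = 0.4, adjusted 0.640). This difference was 0.066 without miR-19a/19b mimic replicate 2 and 0.386 without miR-19a/19b mimic replicate 3, where the groups no longer overlapped (exact permutation p = 0.2, adjusted 0.267). For Npr3 to Npr2 the difference was 0.19 (exact permutation p = 0.6, adjusted 0.800), and for Npr1 to Npr2 it was -0.05 (exact permutation p = 0.8, adjusted 0.914). With all 6 hearts the groups overlapped in all 3 ratios, and each compares gene counts not divided by gene length.

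**Figure D4:**
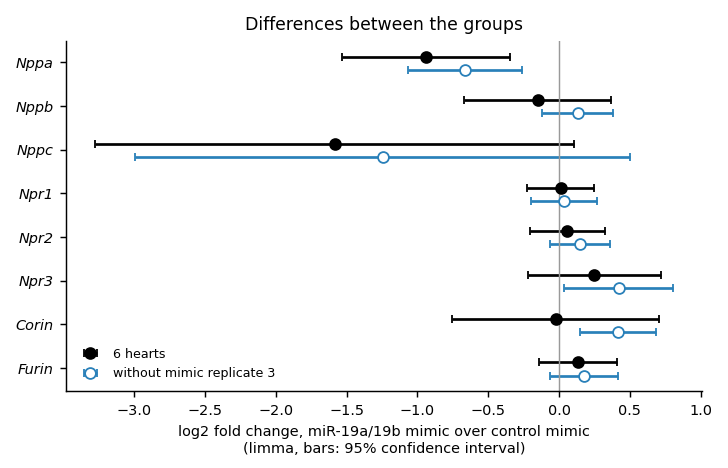
The log2 fold change of each gene (miR-19a/19b mimic over control mimic, limma) with its 95% confidence interval, in all 6 hearts (filled) and without miR-19a/19b mimic replicate 3 (open). The interval of Nppa lies below 0 both ways (-1.53 to -0.35 with all hearts), that of Npr1 is narrow around 0, and Corin goes from -0.02 to 0.41 when the library is left out.

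Corin (ENSMUSG00000005220), at chr5:72300025-72504473 on the minus strand, encodes the membrane protease of cardiomyocytes that converts the ANP precursor. It had 2472, 2106 and 2617 normalized counts in control hearts and 3571, 2839 and 1277 in miR-19a/19b mimic hearts. Replicates 1 and 2 of the miR-19a/19b mimic were the highest of the 6 hearts and replicate 3 the lowest. The means were 2398 ± 263 and 2562 ± 1172 (SD, n = 3), a log2 fold change of -0.02 (standard error 0.32, 95% confidence interval -0.75 to 0.70, unadjusted p = 0.941 in limma). Without replicate 3 it was 0.41 (standard error 0.12, unadjusted p = 0.00608, adjusted p = 0.114 in limma). Corin moved with the cardiomyocyte markers from heart to heart, at 149%, 118% and 53.2% of the control mean where the markers were at 156%, 141% and 52.3%. The log2 ratio of Corin to those markers was -8.01, -8.00 and -8.09 in control hearts and -8.11, -8.29 and -8.01 in miR-19a/19b mimic hearts. It differed by -0.10 (exact permutation p = 0.2, adjusted 0.533).

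Furin (ENSMUSG00000030530), at chr7:80388585-80405436 on the minus strand, is expressed in most cell types and holds the other seed match. It had 6001, 5585 and 6344 normalized counts in control hearts and 7347, 6203 and 6202 in miR-19a/19b mimic hearts. Replicate 1 of the miR-19a/19b mimic was the highest, and the other two lay inside the control range. The means were 5977 ± 380 and 6584 ± 661 (SD, n = 3), a log2 fold change of 0.14 (standard error 0.12, 95% confidence interval -0.14 to 0.41, unadjusted p = 0.289 in limma). The ratio of Furin to Corin was 2.43, 2.65 and 2.42 in control hearts and 2.06, 2.18 and 4.85 in miR-19a/19b mimic hearts. The log2 ratio differed by 0.16 (exact permutation p = 1, adjusted 1). Without replicate 3 this difference was -0.24.

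Levels between genes were compared per kilobase of the deposited gene length. Control means per kilobase were 17266 for Nppb, 2345 for Nppa, 651 for Furin, 444 for Corin, 312 for Npr2, 152 for Npr1, 39.2 for Npr3 and 4.35 for Nppc. Per kilobase, Nppb was 7.36-fold Nppa in the control means and 13.1-fold in the miR-19a/19b mimic means. The length of Nppa includes 532 of 865 bases shared with Gm13054, so both folds depend on how reads there were counted. Neighbours in the order of the control means kept it in all 6 hearts, apart from Corin and Npr2, which did so in 5 of 6. The ranges over hearts overlapped for Furin with Corin and for Corin with Npr2, and for no other neighbours. The clearance receptor was the least abundant of the 3 receptors on this scale, and Npr2 was 2.05-fold Npr1 in the control means.

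**Figure D5:**
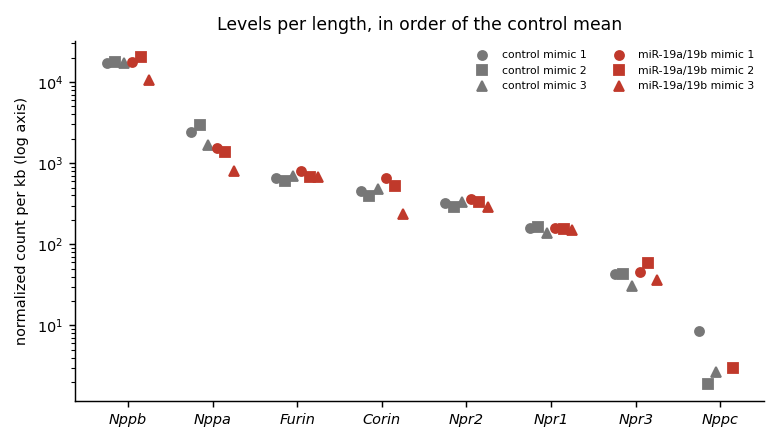
Normalized counts per kilobase of gene length (log axis) of the 8 genes in each of the 6 hearts, in order of the control mean. Nppb is the highest in every heart, from 10496 to 20293, and the 2 hearts with 0 reads of Nppc are not drawn.

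Downstream of the receptors, cyclic GMP acts on protein kinase G and is broken down by phosphodiesterases. Of 16 genes of cyclic GMP signalling, 0 passed the adjusted threshold and 1, Prkg1, was lower at an unadjusted p-value under 0.05, beside 2.63% of all genes, and the median log2 fold change was -0.07 beside 0.00 over all genes. Prkg1, the main protein kinase G of muscle, had 311, 250 and 306 normalized counts in control hearts and 244, 212 and 171 in miR-19a/19b mimic hearts, without overlap. Its log2 fold change was -0.47 (standard error 0.16, unadjusted p = 0.0180, adjusted p = 0.9996 in limma), and Prkg1 kept an unadjusted p-value under 0.05 in 12 of the 14 alternatives. The exceptions were the fits in limma without control mimic replicate 1 (-0.42, unadjusted p = 0.0678) and without control mimic replicate 3 (-0.43, unadjusted p = 0.0644). Pln, whose product phospholamban is a known substrate of that kinase, had 21179, 19417 and 23727 in control hearts and 33361, 34312 and 11631 in miR-19a/19b mimic hearts. It was the only gene of the pathway and stress lists to pass the adjusted threshold in any setting. It did so in the limma fit that left out replicate 3 (0.66, adjusted p = 0.0323). Pln was thus 1 of 56 list genes tested in that fit, beside 164 lower and 383 higher genes among all 21202. In the same fit 3 of the 10 cardiomyocyte markers also passed. Pln was named after its values were seen.

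Among the genes for breakdown of the peptides, other converting enzymes and competing ligands, 11 of the 13 listed were tested and 0 passed the adjusted threshold. Pcsk1, a prohormone convertase, was higher at an unadjusted p of 0.0481 in limma. It had 0 to 0.98 normalized counts in control hearts, against 0.86 to 4.30 with the miR-19a/19b mimics, and so rests on few reads. With means of 0.33 and 2.75, it passed the minimum mean of 1 only through the group where it was higher. Its p-value therefore cannot count as support for a difference. That unadjusted p-value was under 0.05 in 3 of the 12 alternatives that tested Pcsk1. Mme, which encodes neprilysin, the main peptidase of these peptides, had 97.3, 92.7 and 103 in control hearts and 126, 121 and 119 in miR-19a/19b mimic hearts, without overlap. Its log2 fold change was 0.32 (standard error 0.14, unadjusted p = 0.0531, adjusted p = 0.9996 in limma), and it was named after its values were seen. The other gene of the list without overlap was the peptidase gene Dpp4, which went the other way, with 115, 118 and 139 in control hearts and 113, 97.9 and 98.5 in miR-19a/19b mimic hearts. Its log2 fold change was -0.26 (standard error 0.16, unadjusted p = 0.128 in limma). Without overlap were thus 2 of the 11 genes tested, 1 in each direction, beside 5.3% of all genes lower and 3.9% higher. The list's median log2 fold change was 0.03.

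Of 15 transcription factors known to act on the Nppa and Nppb promoters, 0 passed the adjusted threshold and 7 had a fold change above 0, with a median log2 fold change of -0.0016. Tbx3, a T-box repressor that keeps Nppa low in the conduction system, was the 1 factor with an unadjusted p-value under 0.05, beside 1.39% of all genes higher and 2.63% lower. It had 211, 136 and 206 normalized counts in control hearts and 265, 260 and 218 in miR-19a/19b mimic hearts, without overlap. Its log2 fold change was 0.45 (standard error 0.19, unadjusted p = 0.0423, adjusted p = 0.9996 in limma), opposite in sign to that of Nppa. Any effect of Tbx3 on Nppa in these hearts was not tested. The unadjusted p-value of Tbx3 was under 0.05 in 9 of the 14 alternatives. It was not in DESeq2 (0.0518), with the replicate block (0.0602, limma), or in limma without control mimic replicate 2 (0.145), miR-19a/19b mimic replicate 1 (0.106) or miR-19a/19b mimic replicate 2 (0.110). Without control mimic replicate 2, the heart with the lowest Tbx3, its log2 fold change was 0.24. Without miR-19a/19b mimic replicate 3, 4 factors were higher at that threshold, Tbx3, Nkx2-5, Myocd and Hand2, beside 8.39% of all genes. In the same fit 9 of the 10 cardiomyocyte markers were also higher at that threshold, and the part of cardiomyocyte content was not tested. For the activators Gata4 and Nkx2-5, named after their values were seen, the log2 fold changes were -0.04 (standard error 0.14) and 0.17 (standard error 0.34).

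The 8 cardiomyocyte stress genes, which often move with Nppa and Nppb in failing hearts, had 0 past the adjusted threshold. Their log2 fold changes had a median of -0.13 and lay below 0 for 7 and above 0 for 1. Xirp2, which encodes an actin-binding protein of the intercalated disc, had 35560, 37131 and 37036 normalized counts in control hearts and 33564, 25998 and 15601 in miR-19a/19b mimic hearts, without overlap. Xirp2 was the 1 gene of the 8 without overlap, where 5.3% of all genes were lower without overlap. It was also the 1 gene with an unadjusted p-value under 0.05, where 2.63% of all genes were lower. Its log2 fold change was -0.61 (standard error 0.27, unadjusted p = 0.0487, adjusted p = 0.9996 in limma), and its unadjusted p-value was under 0.05 in 6 of the 14 alternatives. In limma it was -0.31 (unadjusted p = 0.0669) without miR-19a/19b mimic replicate 3, and of the hearts left out in turn that p-value was under 0.05 only without miR-19a/19b mimic replicate 1 (unadjusted p = 0.00733). Myh7, Ankrd1 and Acta1, named after their values were seen, overlapped between the groups. The log2 fold changes were -0.06 (standard error 0.33) for Myh7 and -0.15 (standard error 0.29) for Ankrd1. Acta1 was at -0.58 (standard error 0.39, unadjusted p = 0.172 in limma), and at -0.09 without miR-19a/19b mimic replicate 3. Without miR-19a/19b mimic replicate 3 the list's median was 0.19, opposite in sign, while that of Nppa stayed below 0.

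The cell type lists gave the background of these values. At an adjusted p-value under 0.05, 0 markers of any list passed. The summed levels overlapped between the groups for endothelial (23453 to 30701 in control and 26530 to 27293 in miR-19a/19b mimic hearts), endocardial (4816 to 5593 and 4683 to 6224), fibroblast (336835 to 420968 and 281910 to 480338), smooth muscle and pericyte (35175 to 46042 and 33307 to 39823) and macrophage markers (51273 to 58952 and 40839 to 66164). The cardiomyocyte markers summed to 539414 to 714252 in control and to 329390 to 984382 in miR-19a/19b mimic hearts, so that the defining markers of the labelled tissue were abundant in every heart.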

How the data were processed

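RNA-seq of 6 hearts was used, 3 per group as the labels give them. The authors removed adapter and low-quality reads, aligned with STAR 2.5.1b and counted with HTSeq 0.6.0. The deposited signal is the count per gene over the library's size factor, and other columns hold gene length and coordinates, while the authors' own fold changes and p-values were not used. Multiplied back by those factors, 100% of the deposited values in each library were whole (tolerance 0.01 read), so reads were recovered. The submitters' processing notes list mm9 and DESeq2 1.10.1, but 25884 of 26012 identifiers were found in GENCODE on GRCm38, of which 99.9% shared the chromosome and 82.7% both ends, and coordinates are printed as deposited, on GRCm38.

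Groups were compared with limma 3.58.1 (R 4.3.3, trended prior) on log2(normalized count + 1), where the added 1 understates the change of low genes. Genes with a mean of at least 1 were kept, with Benjamini-Hochberg adjustment over all 21126 genes. Single ratios and relations used exact permutation tests, two-sided. The methods were tested on simulated data. Alternatives were DESeq2 1.42.0, edgeR 4.0.16 (quasi-likelihood and exact tests), scaling by library totals, a pseudocount of 0.1, no filter, a minimum mean of 10, the replicate block and each heart left out. The 8 genes and the lists were chosen with earlier results of these data known. Of the lists, genes with an unadjusted p under 0.05 were named, and the 5 genes most like Nppa and Nppb. An item of the lists is not reported here. Replicate hearts differed by more than sampling noise, so none was counted as a repeat.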

Additional observations from a re-analysis of the deposited data

How the results depend on the processing

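Nppa, Nppc, Npr3 and Furin kept the direction of their log2 fold change in each setting that gave a value (Nppc has none with a minimum mean of 10). For Nppa the log2 fold change lay between -1.16 and -0.66 over the 14 alternatives, with unadjusted p-values between 0.000303 and 0.0305 and a lowest adjusted p of 0.0908 (limma, DESeq2 and edgeR). Of the 8 genes, 0 passed the adjusted threshold in any setting. At an unadjusted p-value under 0.05 there were 2 without a filter, where Nppc joined Nppa, beside 2.38% of all genes lower and 1.44% higher. The same 2 genes were lower when miR-19a/19b mimic replicate 2 was left out, beside 1.96% of all genes lower and 0.984% higher. Over all 6 hearts Nppc had only 13 control and 3 miR-19a/19b mimic reads. With each heart left out the number of the 8 genes ranged from 1 to 3. Over all genes, DESeq2 called 28 lower and 1 higher and edgeR's exact test 28 lower and 2 higher, where limma called 0. Leaving out each heart gave 0 to 164 lower and 0 to 383 higher genes, the highest counts without miR-19a/19b mimic replicate 3. Of 56 genes of the lists tested, 0 to 1 passed the adjusted threshold with each heart left out. Those with an unadjusted p-value under 0.05 numbered 1 to 14 in these fits. The 1 (1.79% beside 2.94% of all genes in that fit) came without miR-19a/19b mimic replicate 2. The 14 (25% beside 14.5% of all genes) came without replicate 3. Leaving out control mimic replicates 1, 2 and 3 in turn gave 3 (5.36% beside 3.53%), 3 (5.36% beside 2.88%) and 2 (3.57% beside 3.5%). Limma with all hearts gave 5 (8.93% beside 4.01% of all genes). DESeq2 gave 3 (5.36% beside 2.74%), the quasi-likelihood test 3 (5.36% beside 3.96%) and the replicate block 2 (3.57% beside 3.03%).

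The direction reversed for Corin, from -0.025 to 0.095 in DESeq2, 0.089 in the quasi-likelihood test and 0.090 in the exact test, and for Npr1, from 0.012 to -0.013 when scaled by library totals. With each heart left out, log2 fold changes ranged over -0.344 to 0.132 for Nppb, -0.067 to 0.053 for Npr1, -0.014 to 0.151 for Npr2, 0.072 to 0.420 for Npr3, 0.055 to 0.181 for Furin and -0.327 to 0.415 for Corin. The log2 ratio differences ranged over -0.166 to 0.052 for Npr1 to Npr2, -0.020 to 0.334 for Npr3 to Npr2, 0.066 to 0.386 for Npr3 to Npr1, -0.447 to -0.031 for Nppb to the cardiomyocyte markers and -0.237 to 0.382 for Furin to Corin, and r over -0.585 to 0.834 for Nppa with Nppb, -0.924 to 0.586 for Nppa with the cardiomyocyte markers, -0.451 to 0.839 for Nppa with the stress genes, -0.799 to 0.564 for Nppb with the atrial markers and -0.248 to 0.983 for Nppb with the stress genes. The cause of these shifts was not tested. The replicate numbers are shared between the groups, and same-numbered hearts did not deviate together (r of -0.0085, -0.021 and -0.115). Differently numbered hearts reached an r of 0.116, so with 3 hearts per group this check cannot decide whether the numbers pair the hearts. With the replicate block Nppa had an unadjusted p of 0.000303 and an adjusted p of 0.805 in limma, and 0 genes were called. Depth limited Nppc and Pcsk1, and 3 hearts against 3 limit the permutation tests to 0.1.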

Other observations

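Among the 4576 genes whose mean normalized count reached 1000, a limit chosen after seeing the data, 3 had a lower log2 fold change than Nppa in limma. They were Slfn4, an interferon-induced Schlafen gene (-1.34, standard error 0.31), Thbs4, a thrombospondin of the matrix (-0.99, standard error 0.31), and H2-Q6, a class Ib histocompatibility gene whose reads may be split with near-identical copies (-0.96, standard error 0.24). Slfn4 had normalized counts of 2087, 2270 and 2303 in control hearts and of 483, 1268 and 1104 in miR-19a/19b mimic hearts, without overlap. None of the 3 passed the adjusted threshold in limma.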
